A study of Homo sapiens with 32 samples.

Results

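FHIT, WWOX, MACROD2, IMMP2L, LRP1B, NAALADL2 and DMD are giant genes that lie at common fragile sites, and m6A peaks of chromatin-associated RNA were examined across their whole bodies. The 7 genes were chosen by name from general knowledge, and a peak belonged to a gene if it overlapped the RefSeq gene body by at least 1 base on either strand. They are 7 of the 5453 genes with at least 5 peaks in at least 1 of 12 peak lists, and together they held 615 peaks over the 12 lists. Their bodies run from 0.900 to 2.22 Mb, so peaks were also expressed per megabase (Mb) of gene.

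Common fragile sites are stretches of the genome that break or stay unreplicated when DNA synthesis is slowed. Many of them coincide with the bodies of very long genes, whose transcription can run through the S phase and meet the replication machinery, and deletions inside these genes are frequent in tumours and cancer cell lines. N6-methyladenosine (m6A) is a methyl mark that METTL3, the catalytic subunit of the nuclear m6A writer, places on RNA during transcription, including the long introns that remain on chromatin before they are spliced out and degraded.

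The study profiled m6A in chromatin-associated RNA of 4 established cancer cell lines by MeRIP-seq, in which fragmented RNA is enriched with an m6A antibody and set against unenriched input. OVCAR8 and SKOV3 are ovarian cancer lines, LOVO and RKO are labelled as colon adenocarcinoma lines, and each was compared as a control, given as wild type, with METTL3 knockdown by short hairpin RNA. The ovarian controls carried a control hairpin, while the titles of the colorectal ones say only control. No drug, time point or clone is given for any group. There are 32 libraries, 16 MeRIP and 16 input, which gave 12 peak lists. OVCAR8 and SKOV3 had 2 lists per group, 1 for each library, and LOVO and RKO had 1 list per group. The labels do not say that duplicates came from separate cultures, so the spread between lists may be technical.

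The 12 lists held 15484 to 37398 peaks, and between 0.118% and 0.262% of a list lay in the 7 genes. The depth could be read in the 8 ovarian lists, where the median peak had 73 to 87 reads at its summit, over the peaks for which reads could be solved. Of the 6 intestinal markers, CDX2, CDH17, LGR5 and HNF4A had peaks in both LOVO lists, CDX1 had 2 in the LOVO control and 0 in the knockdown list, and VIL1 had 0 and 2. In RKO, CDX2 had 3 peaks in the control and 0 in the knockdown list, and the other 5 had 0 in both. Of the 5 ovarian markers, WT1, SOX17 and EMX2 had 0 peaks in all 12 lists, like the epithelial marker EPCAM. PAX8 had 3 to 6 peaks in the OVCAR8 and SKOV3 control lists and 1 and 5 in those of LOVO and RKO. Of the other epithelial markers, KRT8 had peaks in 11 lists and KRT18 in 8. CDH1 had 5 peaks in the LOVO control list, 3 in the LOVO knockdown list and none elsewhere. A gene without a peak may still be expressed. METTL3 itself had 0 to 3 peaks in every list, and peak lists hold no RNA level, so the depletion could not be checked.

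Before any comparison, 2 features of the lists bear on every value given here. The knockdown lists labelled OVCAR8 resembled the SKOV3 control, and those labelled SKOV3 resembled the OVCAR8 control. Of 244 genes with 5 or more peaks in both OVCAR8 control lists and 0 in both SKOV3 control lists, 14 had peaks in both lists labelled OVCAR8 knockdown and 238 in both lists labelled SKOV3 knockdown. Of 351 genes with the opposite pattern, the counts were 313 and 56. MUC16 had 5 and 5 peaks in the OVCAR8 control lists, 0 and 0 in those labelled OVCAR8 knockdown and 5 and 6 in those labelled SKOV3 knockdown. It had 0 and 0 in the SKOV3 control lists. In the same order of 4 groups, PAX8 had 6 and 6, 0 and 0, 5 and 4, and 3 and 3, which follows this in part. KRT18 did not follow it, with 3 and 3, 6 and 6, 6 and 5, and 0 and 0. Ovarian results are therefore given as labelled and with the knockdown lists exchanged. The second feature is the list labelled RKO knockdown, where 137 of the 5453 genes (2.51%) had peaks in it and in no other list. These genes entered the 5453 through their peaks in this list, and the same count was not made for the other lists. Results that rest on it are given with that list named.

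Peak density differed between the 7 genes and between the lines. IMMP2L had peaks in all 12 lists, with 3 to 42, and the other 6 genes did not. FHIT had peaks in 8 lists, WWOX in 9, MACROD2 in 10, NAALADL2 in 5, DMD in 4 and LRP1B in 1. In the control lists the highest densities were 45.6 ± 1.57 peaks per Mb for IMMP2L in OVCAR8 (SD, n = 2 lists), 26.6 for FHIT in RKO, 10.1 ± 1.59 for DMD in OVCAR8 (SD, n = 2) and 9.88 for WWOX in RKO. MACROD2 reached 5.35 in SKOV3, NAALADL2 1.46 in SKOV3, and LRP1B had no peak in any control list. The median over all 280 genes of at least 500 kb that had a peak in some list was 0 in the OVCAR8 and RKO control lists, 1.90 and 1.91 in the SKOV3 control lists and 0.681 in the LOVO control list. Among those of the 280 that had a peak in the list itself, it was 6.84 and 5.69 for the OVCAR8 control lists, 7.81 and 7.27 for those of SKOV3, 9.51 for LOVO and 12.6 for RKO. WWOX in RKO and MACROD2 in SKOV3 were thus below the median of such genes, while IMMP2L and DMD in OVCAR8 and FHIT in RKO were above it.

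**Figure D1:**
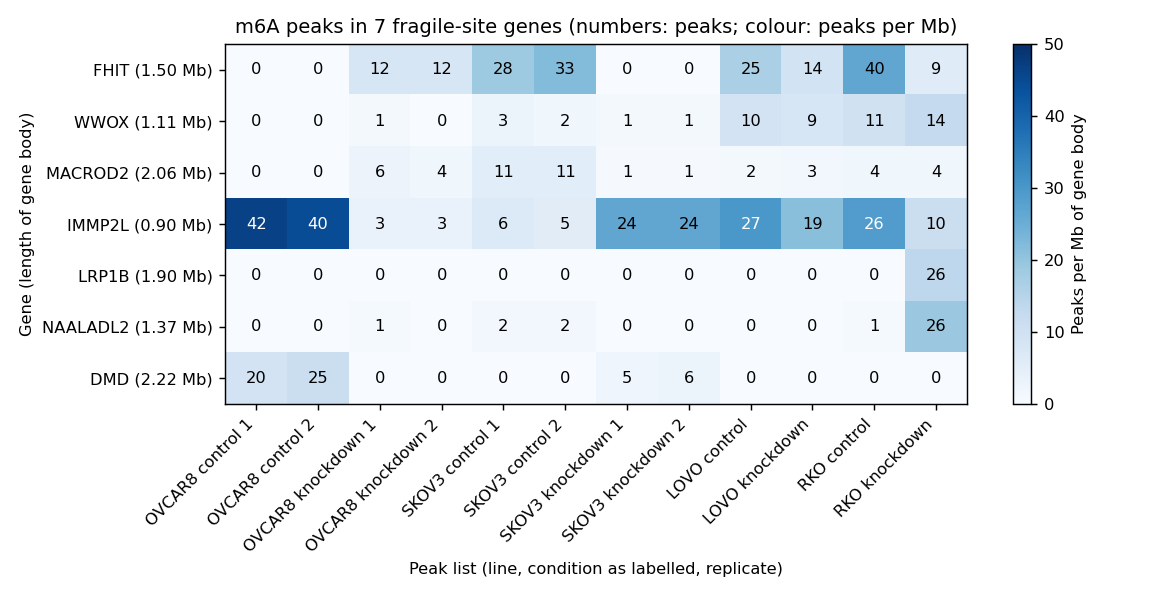
Number of m6A peaks (printed) and peaks per Mb of gene body (colour) for each gene (rows, with gene length) in each of the 12 peak lists (columns, condition as labelled). IMMP2L is filled in every column, FHIT is empty in the OVCAR8 control and in the lists labelled SKOV3 knockdown, and LRP1B has its 26 peaks in the list labelled RKO knockdown.

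Absence from a whole list was common among long genes. All 7 genes except IMMP2L lacked peaks in at least 1 list, beside 53.5% of the 5453 genes and 73.2% of the 209 that were at least 500 kb long. In the control lists, FHIT, WWOX and MACROD2 had 0 peaks in OVCAR8, DMD had 0 in SKOV3, LOVO and RKO, NAALADL2 had 0 in OVCAR8 and LOVO, and LRP1B had 0 in all 4 lines. Of 3084 genes with at least 5 peaks in an ovarian control list, 7.91% had 5 or more in both OVCAR8 lists and 0 in both SKOV3 lists, like DMD, and 11.4% had the opposite pattern, like FHIT and MACROD2. Copy number and RNA level were not measured in these files. A peak needs RNA that is both transcribed and methylated, so a deleted gene, a silent gene and an unmethylated RNA cannot be told apart from a missing peak.

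FHIT lies at chr3:59747277-61251452 (hg38, minus strand, 1.50 Mb) and encodes a diadenosine triphosphate hydrolase that is a tumour suppressor often deleted in cancer. It had 0 and 0 peaks in the OVCAR8 control lists and 28 and 33 in the SKOV3 control lists. The lists labelled OVCAR8 knockdown had 12 and 12, and those labelled SKOV3 knockdown 0 and 0. LOVO had 25 peaks in the control and 14 in the knockdown list, and RKO had 40 and 9. The groups of each ovarian line did not overlap, and they moved in opposite directions as labelled. In LOVO and RKO, and in SKOV3 control against the lists labelled OVCAR8 knockdown, the knockdown lists were lower.

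On the strand of the gene, FHIT peaks ran from 12.1 to 1298 kb from its start in the LOVO control list and from 148 to 1298 kb in both SKOV3 control lists. Of 50 merged regions, 18 were in 1 list, 7 were in at least 6 lists and none was in more than 7. The most shared regions lay 148, 287 and 434 kb from the start of the gene body, at chr3:61103478-61104269, chr3:60963148-60965460 and chr3:60817442-60818307, and each had a peak in the SKOV3, LOVO and RKO controls. At the region 434 kb in, the deposited fold enrichment was 8.57 and 8.45 in the SKOV3 control lists and 4.61 and 5.49 in those labelled OVCAR8 knockdown. Neighbouring peaks were a median of 9.36 kb apart in the RKO control list, 3.12 and 6.76 kb in the SKOV3 control lists and 23.5 kb in the LOVO control list. The same medians over genes of at least 500 kb were 11.7, 6.09, 6.72 and 14.5 kb.

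A stretch of 578 kb in the middle of FHIT, chr3:60151783-60730088, had 0 peaks in both LOVO lists. It runs from 521 to 1100 kb from the start and makes up 38.4% of the gene body. Outside it the LOVO lists had 27.0 and 15.1 peaks per Mb, on both sides of the gap. In the stretch the SKOV3 control lists had 8 and 11 peaks, the lists labelled OVCAR8 knockdown 9 and 9, the RKO control list 12 and the list labelled RKO knockdown 7. The share of FHIT peaks inside the stretch was 28.6% and 33.3% in the SKOV3 control lists and 30.0% in the RKO control list. It was 75.0% and 75.0% in the lists labelled OVCAR8 knockdown and 77.8% in the list labelled RKO knockdown. Regions of the stretch at chr3:60442361-60443782, chr3:60464520-60467512 and chr3:60467664-60469849, between 783 and 808 kb from the start, were in both lists labelled OVCAR8 knockdown, both SKOV3 control lists and both RKO lists, 6 lists in all.

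**Figure D2:**
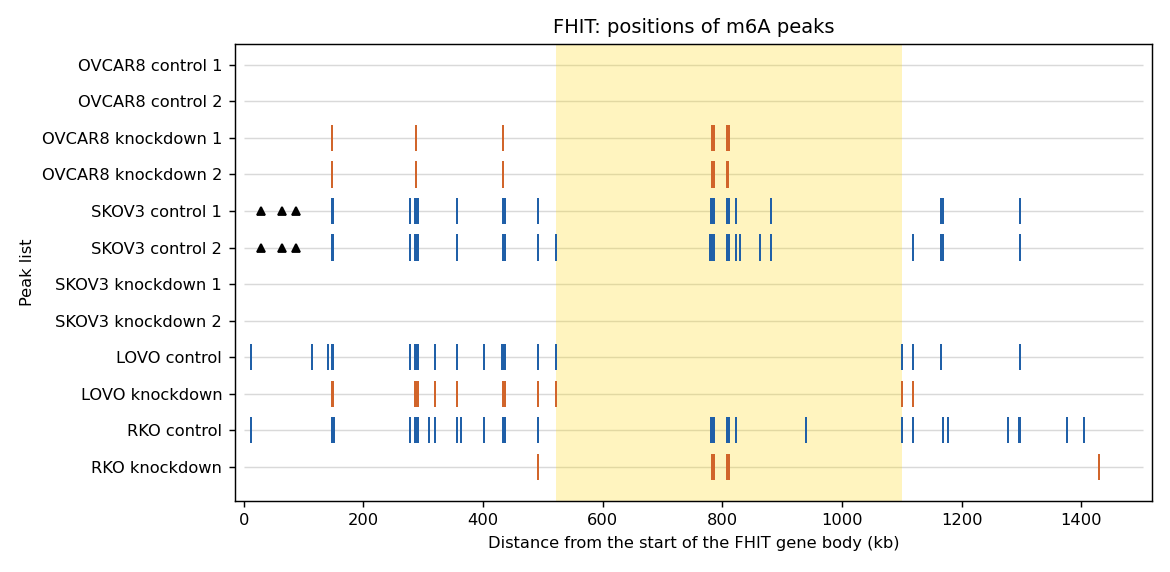
Positions of FHIT peaks (vertical lines, minus strand like the gene; triangles, opposite strand) by distance in kb from the start of the gene body, 1 row per list, with control lists in blue and knockdown lists in orange. The shaded stretch of 578 kb has no peak in either LOVO list and 7 to 12 peaks in each of the other lists that have FHIT peaks.

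Another 6 FHIT peaks lay on the opposite strand, 3 in each SKOV3 control list, 28.8, 63.5 and 87.3 kb from the start of the gene body. They recurred in both lists at the same places and were in no other list.

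WWOX lies at chr16:78099654-79212667 (plus strand, 1.11 Mb) and encodes an oxidoreductase with WW domains, which acts as a tumour suppressor. It had 0 and 0 peaks in the OVCAR8 control lists, 3 and 2 in the SKOV3 control lists, 1 and 0 in the lists labelled OVCAR8 knockdown and 1 and 1 in those labelled SKOV3 knockdown. LOVO had 10 in the control and 9 in the knockdown list, and RKO had 11 and 14. Of these 14, 2 lay on the minus strand in MAF, a transcription factor gene that overlaps the end of WWOX, and 12 on the WWOX strand. The colorectal lists were all above the ovarian ones, and the control and knockdown values lay close together within each line. WWOX peaks were widely spaced, with medians of 42.0 to 86.1 kb between neighbours in the colorectal lists, where long genes had 8.34 to 21.1 kb. The region chr16:78505829-78506504, 407 kb from the start, had a peak in 8 lists, and chr16:78464074-78464378, 365 kb in, had a peak in 7. The second of these also overlaps the long non-coding RNA gene LOC124903728. In LOVO the last 585 kb of the gene had no control peak, while the LOVO knockdown list had 2 peaks there and the RKO lists 5 and 4.

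Of the 6 member genes with a RefSeq promoter window, which ends 50 bases after the start, WWOX alone had a peak that overlapped it. This peak was centred 0.086 kb after the start in the LOVO knockdown list and 0.171 kb after it in the list labelled RKO knockdown. The control lists of these lines had their nearest peak 8.72 and 8.71 kb in. The sequence just before the start is shown because of these peaks, as the 250 bases upstream on the gene strand, from RefSeq GRCh38.p14 at chr16:78099404-78099653, 5′ to 3′. Capitals mark matches, on either strand, to the GC box GGGCGG, the box named for its letters CCAAT, and the TATA box TATAAA, and no match overlaps another here.
WWOX: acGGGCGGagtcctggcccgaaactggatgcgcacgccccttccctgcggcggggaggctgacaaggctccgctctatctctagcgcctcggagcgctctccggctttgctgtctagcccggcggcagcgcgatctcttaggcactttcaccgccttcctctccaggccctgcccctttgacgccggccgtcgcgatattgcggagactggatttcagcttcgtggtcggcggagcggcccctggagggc
This window holds 1 GGGCGG match, 27 CpG pairs and 67.6% G or C. Among 35116 RefSeq windows of the same length, 42.6% hold GGGCGG, 32.0% hold CCAAT and 10.7% hold TATAAA, and the medians are 11 CpG pairs and 58% G or C. RefSeq windows were matched for 6 of the 7 genes, with 14 start sites.

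MACROD2 lies at chr20:13995516-16053197 (plus strand, 2.06 Mb) and encodes an enzyme that removes mono-ADP-ribose from proteins. It had 0 and 0 peaks in the OVCAR8 control lists and 11 and 11 in the SKOV3 control lists. The lists labelled OVCAR8 knockdown had 6 and 4, and those labelled SKOV3 knockdown 1 and 1. LOVO had 2 and 3, and RKO 4 and 4. All SKOV3 control peaks lay in the first 50% of the gene, and the last of them was 922 kb from the start. The region chr20:14008490-14009987, 13.7 kb from the start, had a peak in 7 lists. The deposited fold there was 9.74 and 10.7 in the SKOV3 control lists and 4.34 and 4.55 in the lists labelled OVCAR8 knockdown. The 4 peaks in the list labelled RKO knockdown were all on the minus strand inside FLRT3, a gene for a membrane protein that lies within MACROD2, so on its own strand MACROD2 had 0 peaks there.

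IMMP2L lies at chr7:110662644-111562492 (minus strand, 0.900 Mb) and encodes a subunit of the peptidase that processes proteins of the inner mitochondrial membrane. It had 42 and 40 peaks in the OVCAR8 control lists and 6 and 5 in the SKOV3 control lists. The lists labelled OVCAR8 knockdown had 3 and 3, and those labelled SKOV3 knockdown 24 and 24. LOVO had 27 in the control and 19 in the knockdown list, and RKO had 26 and 10. As labelled, the knockdown lists were lower in OVCAR8, LOVO and RKO and higher in SKOV3. With the ovarian knockdown lists exchanged they were lower in all 4 lines.

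The share of IMMP2L peaks in the first 50% of the gene was 83.3% and 82.5% in the OVCAR8 control lists, 66.7% in the LOVO and 53.8% in the RKO control list, and 52.6% to 66.7% in the knockdown lists of SKOV3, LOVO and RKO as labelled. Neighbouring peaks were a median of 7.08 and 9.39 kb apart in the OVCAR8 control lists, 10.4 kb in the LOVO control list and 17.0 kb in the RKO control list. Of 51 merged regions, 16 were in at least 6 lists and 4 were in the controls of all 4 lines. The regions chr7:111420346-111423673 and chr7:111439613-111441194, 140 and 122 kb from the start, had a peak in each of the 12 lists. In the first of them the highest deposited fold was 23.2 and 21.8 in the OVCAR8 control lists, 3.64 and 3.68 in the SKOV3 control lists, 8.02 and 8.80 in the lists labelled OVCAR8 knockdown and 5.96 and 5.89 in those labelled SKOV3 knockdown. The highest score there was 7.06 in the LOVO control and 10.04 in the LOVO knockdown list, and 8.59 and 21.7 in the RKO lists, although scores of separately called lists need not be on 1 scale.

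Other stretches of IMMP2L were filled in some lines and empty in others. In the SKOV3 control lists, 5 stretches of 118 to 312 kb had no peak, and they held 1 to 14 peaks in each OVCAR8 control list. A stretch of 115 kb starting 199 kb from the gene start was empty in the LOVO, RKO and SKOV3 controls and held 5 or 6 peaks in each OVCAR8 control list. The knockdown lists had 0 peaks in it, or at most 1 in those labelled SKOV3. It lies inside 1 of the 5 SKOV3 stretches, so this place is counted for SKOV3, LOVO and RKO. It overlaps part of the long non-coding RNA gene LOC124900232, which 12 IMMP2L peaks of all lists overlap. LOC124901725, another such gene in IMMP2L, is overlapped by 34. The strands of both are missing from the table used, so these peaks may belong to either gene. LRRN3, a protein-coding gene inside IMMP2L, had no peak.

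DMD lies at chrX:31119222-33339388 (minus strand, 2.22 Mb) and encodes dystrophin, which links the cytoskeleton of muscle to the membrane and is also made in shorter forms from start sites inside the gene. It had 20 and 25 peaks in the OVCAR8 control lists and 5 and 6 in the lists labelled SKOV3 knockdown. The SKOV3 control lists, the lists labelled OVCAR8 knockdown and both lists of LOVO and of RKO had 0. The lists with DMD peaks were thus the OVCAR8 control lists and those labelled SKOV3 knockdown.

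Every DMD peak lay in the distal part of the gene. The peak nearest to the start was 1503 kb from it in both OVCAR8 control lists, the most distant was 2194 kb from it, and 0% of peaks were in the first 50% of the body in any list. Neighbouring peaks were a median of 8.67 and 8.26 kb apart, beside 6.23 and 6.18 kb over long genes of the same lists. RefSeq also gives DMD start sites 128, 211, 927 and 1184 kb into the body, and all peaks lay after each of them. The nearest peak was 319 kb after the start at 1184 kb. A start site 1831 kb into the body had 14 of 20 and 17 of 25 OVCAR8 control peaks after it. No DMD peak overlapped a RefSeq promoter window. The region chrX:31163194-31163893 had a deposited fold of 7.97 and 7.68 in the OVCAR8 control lists and 2.04 and 1.53 in those labelled SKOV3 knockdown. The median fold of all DMD peaks was 5.08 and 4.55 in the former and 2.24 and 2.23 in the latter. In the latter, the median rank of these peaks by −log10 p among all peaks of the list was at percentiles 9.40 and 6.42.

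The DMD peaks begin far from the outermost start. The 250 bases before it and before the internal starts at 1184 and 1831 kb are therefore shown. They are chrX:33339389-33339638, chrX:32155470-32155719 and chrX:31508297-31508546, on the minus strand, with capitals as for WWOX.
DMD, outermost start: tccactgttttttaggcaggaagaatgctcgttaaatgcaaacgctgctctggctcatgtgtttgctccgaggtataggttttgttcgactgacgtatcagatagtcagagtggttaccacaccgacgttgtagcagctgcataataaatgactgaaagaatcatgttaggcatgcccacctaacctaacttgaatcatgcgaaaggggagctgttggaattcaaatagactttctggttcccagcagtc
DMD, start at 1184 kb: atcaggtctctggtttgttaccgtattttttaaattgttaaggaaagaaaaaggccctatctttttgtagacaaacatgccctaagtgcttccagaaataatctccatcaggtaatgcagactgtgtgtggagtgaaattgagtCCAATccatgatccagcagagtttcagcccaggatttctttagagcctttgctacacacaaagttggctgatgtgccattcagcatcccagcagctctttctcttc
DMD, start at 1831 kb: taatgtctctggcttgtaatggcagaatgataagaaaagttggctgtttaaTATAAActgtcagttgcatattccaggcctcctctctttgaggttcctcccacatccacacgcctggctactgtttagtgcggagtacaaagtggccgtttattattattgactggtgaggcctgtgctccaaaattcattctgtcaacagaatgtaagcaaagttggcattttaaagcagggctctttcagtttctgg
The outermost window holds none of these 3 motifs and 8 CpG pairs. The window at 1184 kb holds 1 CCAAT and 1 CpG pair, and that at 1831 kb holds 1 TATAAA and 3 CpG pairs.

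**Figure D3:**
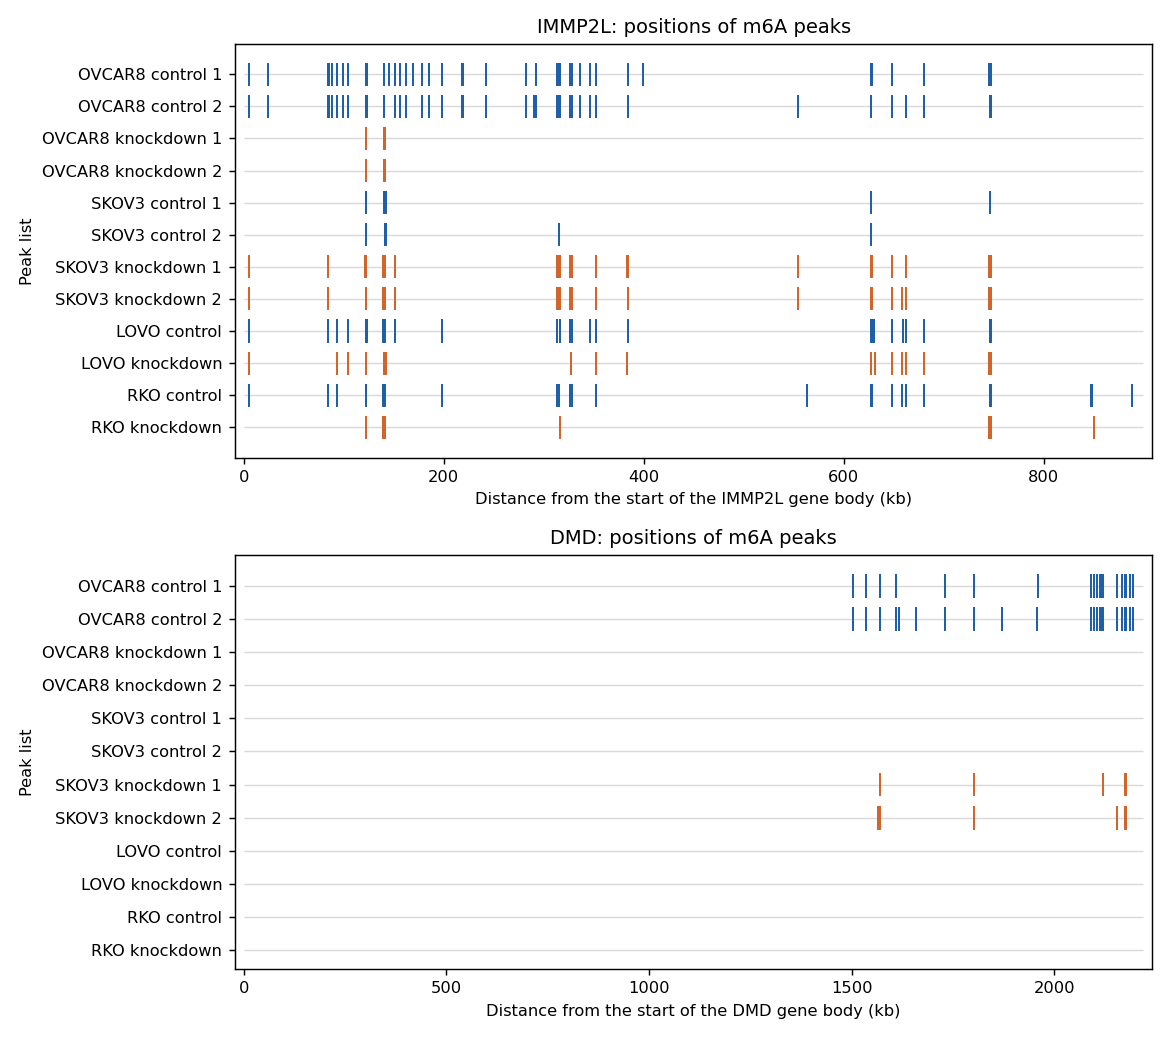
Positions of peaks in IMMP2L (top) and DMD (bottom) by distance in kb from the start of the gene body, 1 row per list, with control lists in blue and knockdown lists in orange. IMMP2L has peaks near 122 and 140 kb in every row, and DMD has none before 1503 kb in any row.

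LRP1B and NAALADL2 were largely seen in the list labelled RKO knockdown. LRP1B lies at chr2:140231423-142131016 (1.90 Mb) and encodes a large endocytic receptor of the LDL receptor family. It had 26 peaks in that list and 0 in the other 11, and 25 of the 26 were on the minus strand, which was taken as the strand of the gene. The other lay on the plus strand 0.155 kb from the start of the body, next to a minus-strand peak at 0.180 kb. NAALADL2 lies at chr3:174440982-175810548 (plus strand, 1.37 Mb) and encodes a membrane protein related to the glutamate carboxypeptidases. It had 26 peaks in the list labelled RKO knockdown, 2 and 2 in the SKOV3 control lists, 1 and 0 in those labelled OVCAR8 knockdown, 1 in the RKO control list and 0 in the remaining lists. Genes with peaks in this list and no other made up 2.51% of the 5453 genes and 10.5% of those of at least 500 kb.

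In both genes these peaks were clustered, with medians of 2.04 kb between neighbours in LRP1B and 2.52 kb in NAALADL2, beside 8.34 kb over long genes of that list. The same list had medians of 2.21 kb in FHIT and 1.27 kb in IMMP2L, over 9 and 10 peaks, and 58.4 kb in WWOX. Of the NAALADL2 peaks, 96.2% lay in the first 50% of the body, and of the LRP1B peaks on its strand 80.0% did. The NAALADL2 regions chr3:174453933-174454484 and chr3:174456442-174457046, 13.2 and 15.8 kb from the start, were each in 4 lists, including both SKOV3 control lists. The list labelled RKO knockdown had 0 peaks in CDX2 and 0 in PAX8, where the RKO control list had 3 and 5. Of the mesenchymal markers ZEB1 had 21 and 21 peaks in the RKO control and knockdown lists, FN1 1 and 1, and VIM 2 and 6. Of the epithelial markers KRT8 had 2 and 0 in the same lists, KRT18 2 and 0, and CDH1 and EPCAM 0 in both. The part of these markers in the result was not tested.

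**Figure D4:**
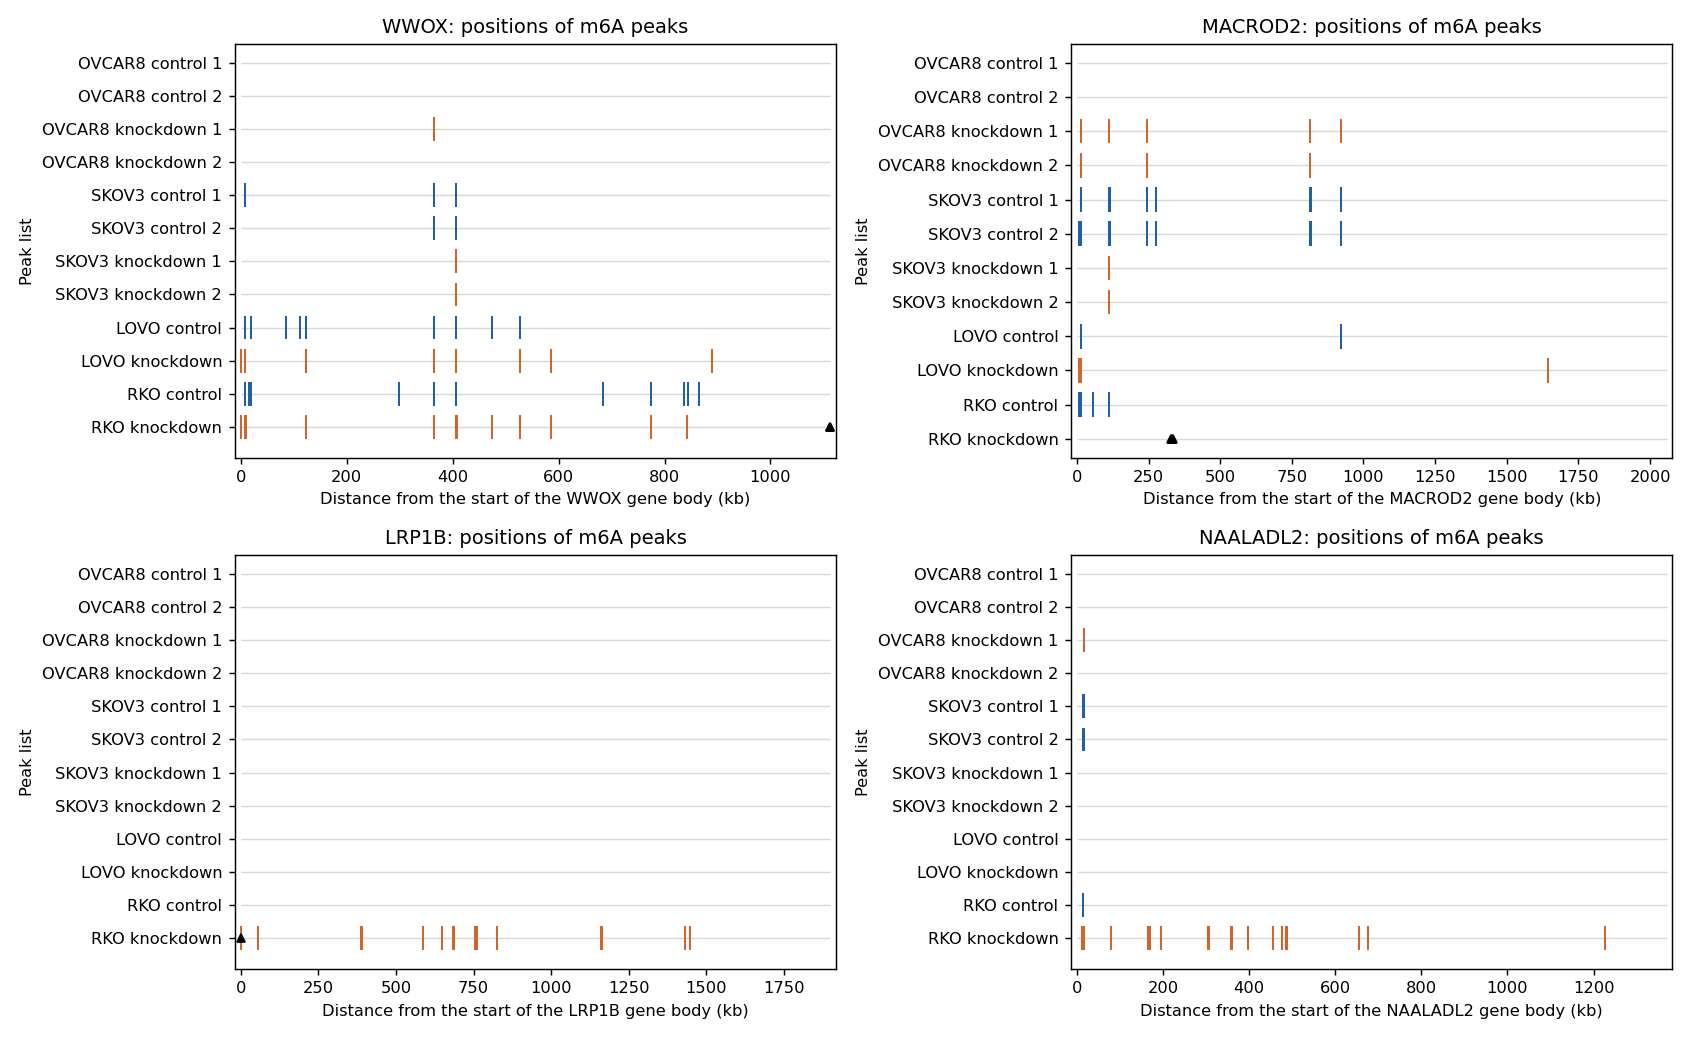
Positions of peaks in WWOX, MACROD2, LRP1B and NAALADL2 by distance in kb from the start of the gene body, 1 row per list (lines on the strand of the gene, triangles on the opposite strand; control lists blue, knockdown lists orange). The 4 MACROD2 peaks in the list labelled RKO knockdown are on the opposite strand, and LRP1B is filled in that list alone.

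Whether METTL3 knockdown changed the number of peaks in a gene was tested over all 4 lines. The value was the mean over lines of the difference in log2(peaks + 1), knockdown minus control. Its two-sided exact permutation test exchanged lists within each line, with 144 arrangements and a smallest possible p of 0.0139, and p-values were Benjamini-Hochberg adjusted over the 5453 genes. None of the 7 genes passed an adjusted p of 0.05, beside 0 of 5453 genes (0%). With so few arrangements, passing would need a large share of the 5453 genes tied near the smallest p. A gene that did not pass is therefore not shown to be unchanged. At an unadjusted p under 0.05 there were 226 genes (4.14%) and none of the 7. FHIT differed by -1.03 on the log2 scale (exact permutation p = 0.292, adjusted p = 0.908), lower in 3 of 4 lines. IMMP2L differed by -0.81 (exact p = 0.236, adjusted p = 0.870), lower in 3 of 4 lines. DMD differed by -0.46 (exact p = 0.556, adjusted p = 0.961). The other 4 had exact permutation p-values of 0.778 to 1 and differences of -0.027 for WWOX, 0.099 for MACROD2, 0.67 for NAALADL2 and 1.19 for LRP1B. The values of NAALADL2 and LRP1B rest on the list labelled RKO knockdown. LRP1B had peaks in that list alone, and RKO had 1 list per group. Every arrangement thus gave LRP1B a difference of the same size, so its p was fixed by the design and tests nothing. Without both RKO lists, NAALADL2 differed by -0.36 and LRP1B had no peak left to test, while FHIT differed by -0.69 and IMMP2L by -0.64. With the ovarian knockdown lists exchanged, IMMP2L was lower in 4 of 4 lines. It reached the smallest p the exact test allows, 0.0139, with an adjusted p of 0.499, which did not pass. With that exchange, 319 of the 5453 genes had an unadjusted p under 0.05. Counted as a share of all peaks of a list, LRP1B also reached 0.0139 (exact test, adjusted p = 0.169). In this setting 565 of the 5453 genes had an unadjusted p under 0.05. LRP1B had no peak in 11 lists, where its value then came from the list total alone. Each knockdown list held fewer peaks in total than the control lists of its line. This p therefore reflects list totals in OVCAR8, SKOV3 and LOVO.

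Within lines, a gene was counted as lower where every knockdown list had fewer peaks than every control list, among genes with at least 5 peaks in a list of the comparison. In OVCAR8 as labelled, 2 of 4 such member genes were lower, IMMP2L and DMD, beside 70.7% of genes, and 2 were higher, FHIT and MACROD2, beside 15.6%. In SKOV3 as labelled the same genes went the opposite way, with FHIT and MACROD2 lower beside 41% and IMMP2L and DMD higher beside 39.3%. In LOVO 3 of 3 were lower, FHIT, WWOX and IMMP2L, beside 56.9%. RKO had 2 of 5 lower, FHIT and IMMP2L, beside 60.6%, and WWOX, LRP1B and NAALADL2 higher, beside 34.5%. With the ovarian knockdown lists exchanged, 2 of 2 were lower against the OVCAR8 control, beside 28.7%, and 3 of 3 were lower against the SKOV3 control, FHIT, MACROD2 and IMMP2L, beside 77.6%. None was higher in either exchanged comparison, beside 16.3% and 3.61% of genes. With 2 to 5 genes per comparison, these counts cannot be set apart from those shares.

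Control regions, defined as merged same-strand peaks present in every control list of a line, were called lost where no knockdown list had an overlapping peak. As labelled, 54 of 56 regions in the 7 genes were lost in OVCAR8, which is 96.4% (95% Wilson interval 87.9% to 99.0%), beside 57.8% of all control regions of the line. In SKOV3 38 of 44 were lost, 86.4% (73.3% to 93.6%), beside 44.4%. With the ovarian knockdown lists exchanged, the shares were 34 of 56, or 60.7% (47.6% to 72.4%), beside 14.6%, and 27 of 44, or 61.4% (46.6% to 74.3%), beside 44.3%. LOVO lost 28 of 64, 43.8% (32.3% to 55.9%), beside 37.8%, and RKO lost 64 of 82, 78.0% (67.9% to 85.6%), beside 60.1%. The intervals cover counting error only, and regions of a gene share its RNA and are not replicates.

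Loss was uneven among the genes. FHIT lost 12 of 25 regions in LOVO, 33 of 40 in RKO and 26 of 26 in SKOV3 as labelled, or 19 of 26 with the exchanged lists. IMMP2L lost 11 of 27 in LOVO, 20 of 26 in RKO and 35 of 37 in OVCAR8 as labelled, or 21 of 37 with the exchanged lists, and 0 of 4 in SKOV3 as labelled. DMD lost 19 of 19 regions in OVCAR8 as labelled and 13 of 19 with the exchanged lists. WWOX lost 4 of 10 in LOVO and 7 of 11 in RKO. MACROD2 lost 9 of 10 regions in SKOV3 as labelled, 5 of 10 with the exchanged lists and 4 of 4 in RKO.

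**Figure D5:**
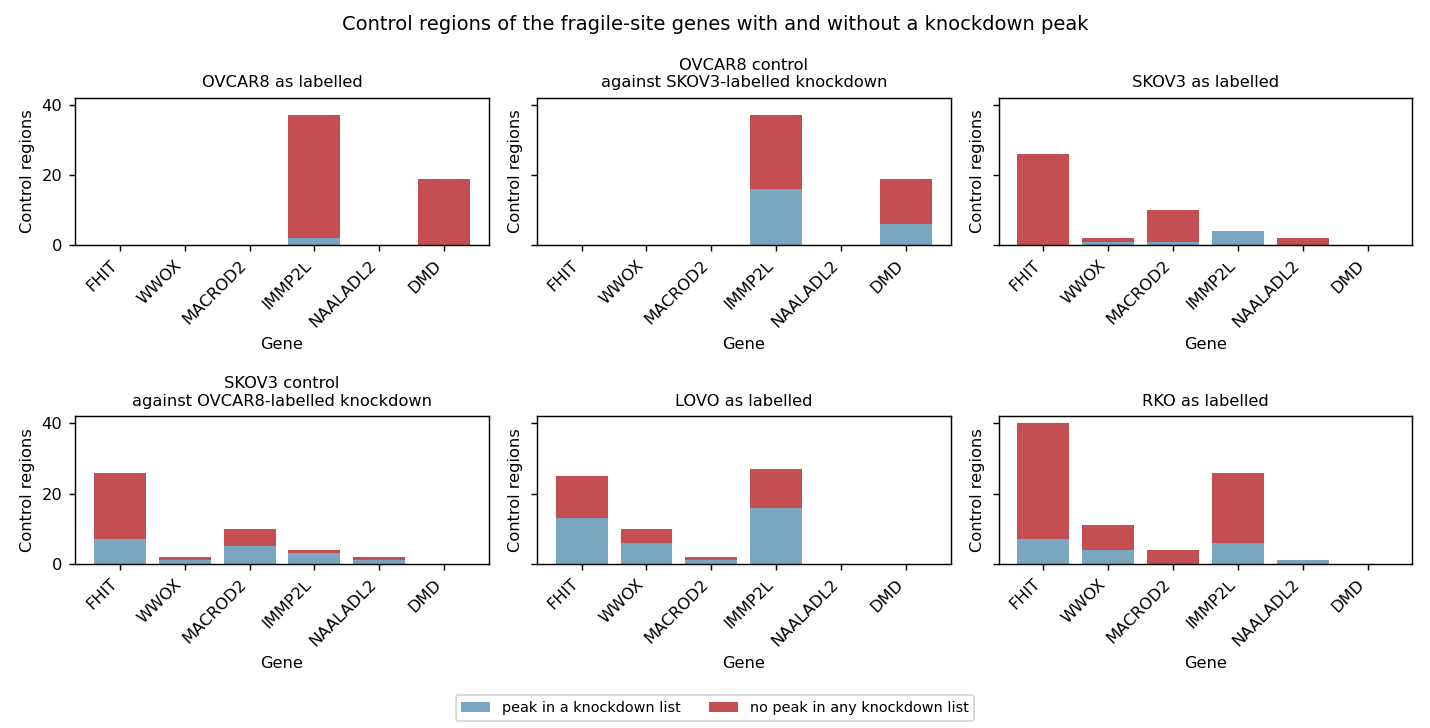
Number of control regions per gene that had a peak in a knockdown list (blue) or in none (red), for each comparison named above its panel. As labelled, 26 of 26 FHIT regions of SKOV3 and 19 of 19 DMD regions of OVCAR8 were lost, and with the ovarian knockdown lists exchanged 19 of 26 and 13 of 19 were.

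The kept regions of the member genes were stronger and wider than the lost ones in LOVO and RKO. The same was not computed over all control regions, so it cannot be called particular to these genes. Strength was the rank of a peak in its list as a percentile, by −log10 p in the ovarian lists and by score in the colorectal lists. Over the member genes the median was 69.6 for 36 kept and 29.9 for 28 lost regions in LOVO, and 61.8 for 18 kept and 34.9 for 64 lost regions in RKO. Median widths of kept and lost regions were 366 and 163.5 bases in LOVO and 648 and 363 in RKO. An overlap of 1 base was enough for a region to be kept. For FHIT in LOVO it was 80.7 for 13 kept and 32.1 for 12 lost regions, with median widths of 324 and 165.5 bases. For FHIT in RKO it was 51.9 for 7 kept and 38.7 for 33 lost regions, and the kept ones lay a median of 786 kb from the start against 436 kb. In SKOV3 as labelled the order was reversed, 44.9 for 6 kept and 52.0 for 38 lost regions. Of these 6 kept regions, 4 were in IMMP2L, with a median of 40.2, and all 26 FHIT regions were among the lost. OVCAR8 as labelled had 2 kept regions, at 98.4, and 54 lost ones, at 54.8. Strength was not compared with the ovarian knockdown lists exchanged. These medians are descriptions without a test.

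Regions seen in knockdown lists and not in the control were counted in the same way. RKO gained 68 of 89 regions in the 7 genes, beside 54.9% of all its knockdown regions, of which LRP1B gave 26 of its 26 and NAALADL2 25 of its 26. LOVO gained 6 of 45, beside 26.9%. OVCAR8 as labelled gained 14 of 17, beside 25.9%, and SKOV3 as labelled 21 of 29, beside 36.5%. Against the control of the other ovarian line, 0 of 17 regions of the lists labelled OVCAR8 knockdown lacked a SKOV3 control peak, beside 1.94%, and 2 of 29 regions of those labelled SKOV3 knockdown lacked an OVCAR8 control peak, beside 8.81%. The 10 FHIT regions of the lists labelled OVCAR8 knockdown all overlapped a SKOV3 control peak.

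Stretches of at least 100 kb with no control peak in 1 line and at least 5 peaks in a control list of another were found 13 times inside these genes, or 1.17 per Mb. All 209 tested genes of at least 500 kb, the members included, had 193 such stretches, or 1.14 per Mb, so the members had about as many per length. The stretches of the members comprised 1 in FHIT, 3 in WWOX, 2 in MACROD2 and 7 in IMMP2L, of which 5 were in SKOV3. The IMMP2L stretches of LOVO and RKO lay inside 1 of those in SKOV3. The longest, 1945 kb in MACROD2 in RKO, lies in a gene with 4 RKO control peaks in all, and the SKOV3 control lists had 9 and 8 peaks in it. FHIT in LOVO, with 25 control peaks, and IMMP2L in LOVO and RKO, with 27 and 26, had the most peaks around their stretch.

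The genes whose peak number followed each member most closely over the 12 lists are given by Pearson r of log2(peaks + 1), as a description over lists that share depth and line. They were PLEKHO2 (0.990) and SH3PXD2B (0.986) for FHIT, SCYL3 (0.969) and FBXL17 (0.964) for WWOX, and PDE4DIPP2 (0.969) and DBF4 (0.945) for MACROD2. For IMMP2L they were GTF3C1 (0.980) and PARG (0.977), for NAALADL2 RTN1 (0.970) and LOC105375630 (0.963), and for DMD TRIM29 (0.998) and LOC105378314 (0.995). Between 28 and 248 genes per member had r over 0.9. LRP1B had r = 1 with all 136 other genes that had peaks in the list labelled RKO knockdown alone, among them ATP10A and KCNIP1, so no closest gene can be named. DMD and LOC105378314 had peaks in the same 4 lists, the latter with 26 and 28 in the OVCAR8 control lists and 9 and 10 in those labelled SKOV3 knockdown.

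A list of 20 other long genes at or near common fragile sites gave the wider picture. Of these, 5 had no peak in any list, 13 had at least 5 in some list, and 12 of those 13 were empty in at least 1 list. DLG2, a synaptic scaffold gene, was the exception with 2 to 16 peaks in every list. CCSER1 had 35 peaks in the LOVO control list, 25 in the LOVO knockdown list and 0 in both RKO lists. SDK1, a cell adhesion gene, had 18 and 19 in the SKOV3 control lists, 43 in the list labelled RKO knockdown and 0 in the RKO control list. RORA, a nuclear receptor gene, had 16 and 18 in the SKOV3 control lists, and IL1RAPL1 had 17 and 14.

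Counted as for the members, other fragile-site genes numbered 2 of 5 lower and 2 higher in OVCAR8 as labelled, beside 70.7% and 15.6% of genes. SKOV3 had 6 of 7 lower and 0 higher, beside 41% and 39.3%. LOVO had 3 of 4 lower and 0 higher, beside 56.9% and 32.7%. RKO had 2 of 9 lower and 7 higher, beside 60.6% and 34.5%. With the ovarian knockdown lists exchanged, 1 of 3 were lower and 0 higher against the OVCAR8 control, beside 28.7% and 16.3%. Against the SKOV3 control 7 of 7 were lower, beside 77.6%. These are counts of few genes without a test. For 6 of the 13 genes the highest count was in the list labelled RKO knockdown, beside 15.3% of the 5453 tested genes and 32.5% of the 209 of at least 500 kb.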

How the data were processed

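Chromatin-associated RNA of 4 cell lines was profiled by MeRIP-seq, and the 12 deposited peak lists were analysed. Tools named in the submitters' processing notes, without role or order, are MACS2 2.2.7.1, HISAT2 2.1.0, Trim Galore 0.6.6 and Bowtie2 2.4.2, with hg38 as the build. The ovarian lists were deposited by the authors as 1 list per MeRIP library with a fold enrichment, which is a linear ratio, and −log10 p per peak. The colorectal lists were deposited as 1 per group and carry an unexplained score. Their peak names cite replicate 1, and the use of replicate 2 is not stated. Peaks are those that passed the authors' threshold, so peak number depends on depth, and the number of lists limits the precision. Summit reads were recovered from fold and p in the ovarian lists, leaving out the peaks with the smallest p (27798 of 28237 solved in the first OVCAR8 control list), and 100% of those solved were whole within 0.1 read.

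Genes are bodies in the RefSeq table of GRCh38.p14, which gives no exons, so exon or intron is not stated. Tests, regions and stretches were computed in Python 3.11.15 with numpy 2.4.6, pandas 2.3.3 and scipy 1.17.1, and the permutation test was checked on simulated data. Alternatives changed how peaks were counted, thresholds, strand, overlap, pseudocount, the lists used and the ovarian labels. Named genes were the 7 members, the 2 genes most like each, the 5 other fragile-site genes with the most control peaks (1 of them is not reported here) and genes inside the members with peaks. The members and lists were chosen with earlier results of these data known.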

Additional observations from a re-analysis of the deposited data

Results flagged for a closer look

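The change from control to knockdown, in log2(peaks + 1) as labelled, went one way in every OVCAR8 list and the opposite way in every SKOV3 list for 4 of the 7 genes, beside 43.1% of the 5453 tested genes and 50.7% of the 209 of at least 500 kb. The OVCAR8 change minus the SKOV3 change was 8.67 for FHIT, 5.15 for MACROD2, -5.34 for IMMP2L and -7.24 for DMD. The difference itself had an exact two-sided permutation p of 0.0556 for each of the 4, which is the smallest that its 36 arrangements can give, so this design cannot pass 0.05. Over all genes, 238 of 244 with peaks in the OVCAR8 control and not in the SKOV3 control had peaks in both lists labelled SKOV3 knockdown. The part of the labels in these differences was not tested. With the knockdown lists exchanged between the lines, FHIT, MACROD2 and IMMP2L were lower in knockdown than in the SKOV3 control, and IMMP2L and DMD were lower than in the OVCAR8 control.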

How the results depend on the processing

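No member gene passed an adjusted p of 0.05 under any alternative run, and FHIT, IMMP2L and DMD stayed lower and LRP1B higher under each that gave a value. The few arrangements limited every run, so the lack of a pass adds nothing to the main result. In the ovarian lines alone, 0 genes had even an unadjusted p under 0.05. As a share of the list, LRP1B moved from an exact permutation p of 1, which the design fixed, to 0.0139, the smallest possible (adjusted p = 0.169). In that setting, lists without a peak in the gene are valued by their totals alone. It adds the same amount to the difference of every gene. The difference of WWOX turned from -0.027 to 0.31 as a share of the list and to 0.00071 with a pseudocount of 0.5, and it ran from -0.15 to 0.098 with 1 ovarian list left out (0.025 without SKOV3 control replicate 1, 0.098 without OVCAR8 knockdown replicate 2). MACROD2 turned from 0.099 to -0.48 on the gene strand, -0.33 without peaks in other genes, -0.11 with equal numbers of peaks per list, -0.14 by bases covered and -0.010 in the ovarian lines alone. NAALADL2 turned from 0.67 to -0.36 without the RKO lists, -0.54 in the ovarian lines alone, and -0.36 with the ovarian knockdown lists exchanged and without RKO, an alternative chosen after seeing the data. Apart from the amount added in the share setting, the causes were not tested. With at least 50% of a region overlapped, 100% of OVCAR8 and 57.8% of LOVO regions were lost. At the overlap of 1 base, exchanging the ovarian knockdown lists gave 60.7% of OVCAR8 and 61.4% of SKOV3 regions lost. The exchange was not run with the 50% rule. Peak-free stretches numbered 7 at 200 kb and 3 with 10 peaks elsewhere. A replicate block, exchanging only same-numbered lists, had 64 arrangements and a smallest possible p of 0.03125. No adjusted call changed, but this smallest p left little room for one. In the block FHIT had p = 0.406 and IMMP2L p = 0.344 (exact permutation), and 87 genes instead of 226 had an unadjusted p under 0.05. Same-numbered lists did not deviate together (r = 0.018 in OVCAR8 and 0.012 in SKOV3, over 5453 genes), so the numbers were not taken as pairs.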
